A study of Rattus norvegicus with 10 samples.

Results

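The genes described here encode the proteasome, the large protease that degrades ubiquitin-tagged proteins, in rat penile cavernosal tissue. They were chosen by name: every probe set whose platform annotation gave 1 gene with a symbol starting Psma, Psmb, Psmc, Psmd or Psme. That rule found 41 probe sets for 38 genes, of 10411 singly named genes on the array, and used no measured value. A further 6 probe sets listed such a symbol together with other genes and were left out, so Psmb6 and Psme3 were not analysed here. By role, 13 probe sets read the constitutive 20S core, 15 probe sets (14 genes) the 19S cap, 5 the immunoproteasome (Psmb8, Psmb9, Psmb10, Psme1 and Psme2), 3 the activator Psme4 and 3 the cap's assembly factors. The remaining 2, Psmc3ip and Psme3ip1, share only the prefix and encode no proteasome subunit. The study hybridised total RNA of F344 rats, an inbred strain, to Affymetrix RAE230A arrays, 1 array per sample. The control group had 5 samples, and the diabetic group had 5 samples of rats 10 weeks into diabetes induced by streptozotocin, a toxin of the pancreatic beta cell. The labels name the tissue and strain alike for both groups, give no vehicle for the controls, and say only that samples are separate, so p-values reflect only how these samples spread, which may be technical.

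The 20S core is a barrel of stacked rings. Alpha subunits (Psma) form the outer rings and the gate, and beta subunits (Psmb) form the inner rings, where Psmb5, Psmb6 and Psmb7 carry the chymotrypsin-like, caspase-like and trypsin-like sites. Interferon-gamma induces Psmb8, Psmb9 and Psmb10, which replace Psmb5, Psmb6 and Psmb7 in newly built particles, and Psme1 and Psme2, which form a ring that opens the core without ubiquitin. This form favours peptides that fit MHC class I molecules. The 19S cap recognises ubiquitin, unfolds the substrate with a ring of ATPases (Psmc) and removes the tag with its lid (Psmd). In striated muscle, ubiquitin-dependent proteolysis is a known route of protein loss in insulin deficiency.

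The 10 arrays had median intensities of 116.8 to 131.4, and precision is limited by their number. Smooth muscle markers, which define the labelled tissue, were present: all 10 listed genes passed the filter on low values, with a summed intensity of 12823 to 16460 in controls and 13798 to 18208 in diabetic arrays. Of 19 skeletal muscle markers on the array 18 passed it, with sums of 104604 to 126716 and 85973 to 114027, so the samples also held striated muscle RNA. Controls stood apart from one another in epithelial genes (mean log2 level of the tested markers 5.82 in control 1, 5.91 in control 2 and 7.56 in control 4, against 8.85 in control 3, 9.33 in control 5 and 8.50 to 9.43 in diabetic arrays). Below, values without controls 1, 2 and 4 are given beside the members described in full. They set only controls 3 and 5 against the 5 diabetic arrays. With so few controls, such values are weak evidence in either direction. These controls also had the lowest weights when arrays were weighted by how well they fitted (0.369 and 0.196). Such a weight measures fit to the group mean, and they were the smaller side of the split, so it does not show poor arrays. In such bulk samples, fewer cells of a type and less RNA per cell cannot be told apart.

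In diabetic tissue, the 5 immunoproteasome genes all averaged higher than in control tissue, with a median log2 change of 0.33, while the constitutive 20S core and 19S cap averaged lower, with medians of -0.27 and -0.18. The median over all 9683 probe sets tested was 0.047. Psmb8, the inducible chymotrypsin-like subunit, had the largest change of any member, 0.77, and Psmc5, a cap ATPase, the lowest, -0.49. Of the 41 members, all of which passed the filter, 30 averaged lower and 11 higher, and across all tested probe sets 42.2% averaged lower.

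By limma's moderated test, adjusted by Benjamini-Hochberg across the 9683 probe sets, 0 of 41 members passed a threshold of 0.05, where 41 of all probe sets did (0.423%, with 0.217% higher and 0.207% lower). The lowest adjusted p among members was 0.0612, for Psmb8. At an unadjusted p under 0.05 there were 16 members, 3 higher and 13 lower, and 17.5% of all probe sets were past that mark (10.1% higher and 7.43% lower). The 3 higher were the immunoproteasome genes Psmb8, Psme1 and Psmb9. The 13 lower included 6 probe sets of the core and 6 of the cap. The count of calls depended on control 5: without it 8 members passed (Psma4, Psma7, Psmb3, Psmb7, Psmc2 and Psmc5 lower, Psmb8 and Psme1 higher), where 11.0% of all probe sets did (5.32% higher and 5.71% lower). When arrays were weighted by how well they fitted, which gave control 5 the lowest weight (0.196) and control 3 the next (0.369), 18 members passed, 3 higher and 15 lower, and 29.1% of all probe sets did (17.2% higher and 11.8% lower). Controls 5 and 3 had the highest epithelial levels of the controls, inside the diabetic range. Both settings thus leaned more on controls 1, 2 and 4, whose epithelial levels were below every diabetic array. The groups did not overlap for Psme1 (higher) and Psmc3 (lower), and 3.89% of all probe sets were separated in this way (2.36% higher and 1.53% lower).

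**Figure D1:**
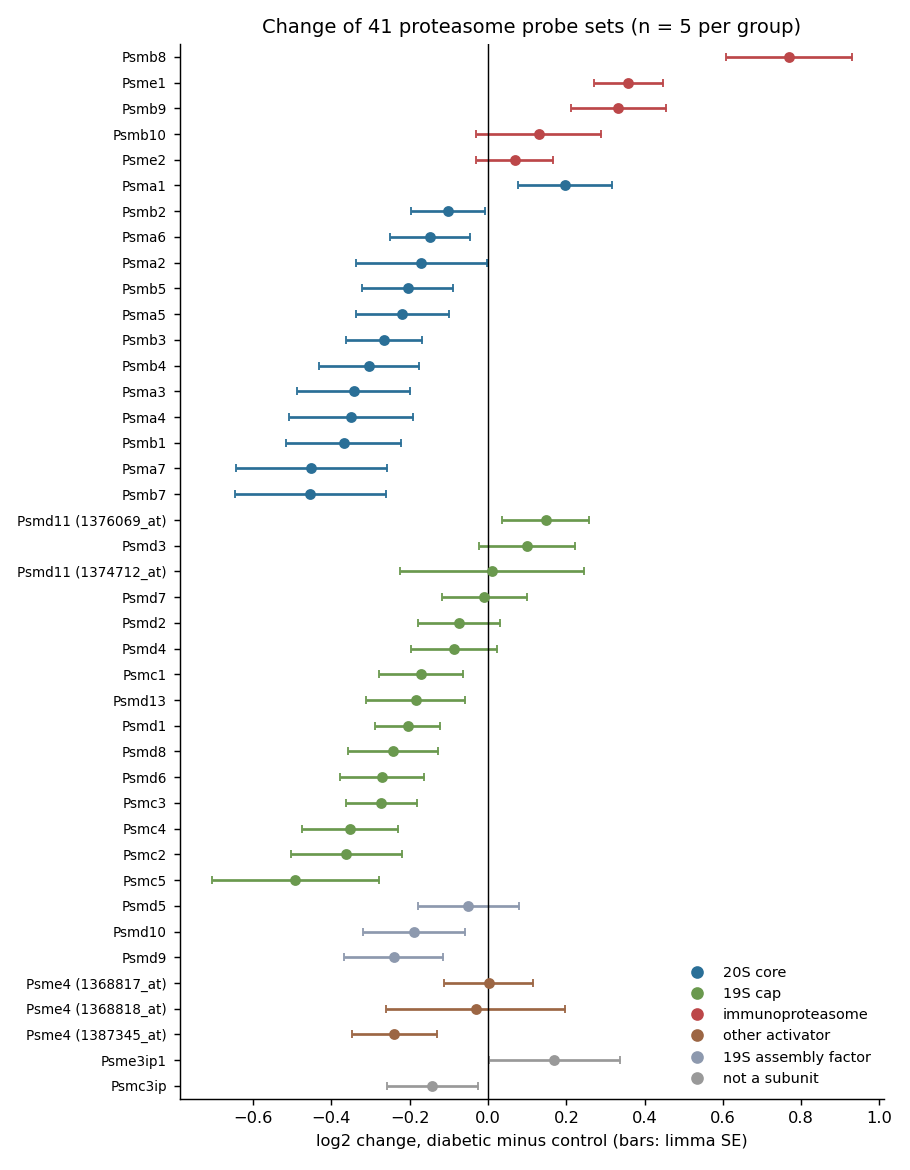
Log2 change, diabetic minus control, of every proteasome probe set, ordered within its class, with its standard error (5 arrays per group). All 5 immunoproteasome probe sets sit to the right of 0, 12 of 13 in the 20S core and 12 of 15 in the 19S cap to its left, and the median of all tested probe sets is 0.047.

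Psmb8 (probe set 1367786_at) encodes the immunoproteasome subunit with chymotrypsin-like activity. Its intensity in controls 1 to 5 was 109.8, 103.1, 152.2, 124.8 and 191.4, and in diabetic samples 1 to 5 it was 261.0, 233.6, 187.7, 247.6 and 268.8. The groups met only through control 5 and diabetic 3, and the other 4 diabetic arrays exceeded every control. The means were 136.3 ± 36.1 and 239.7 ± 32 (SD, n = 5 each), a 1.70-fold difference and a log2 change of 0.77 ± 0.16 (SE; limma unadjusted p = 0.000543, adjusted p = 0.0612). Without control 5 the change was 0.89 and passed (adjusted p = 0.0103), and over 24 alternative settings the adjusted p ran from 0.00338 to 1.0, with the change between 0.44 and 0.93. Without controls 1, 2 and 4 it was 0.44 (adjusted p = 0.236).

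Psmb9 (1370186_at) encodes the inducible counterpart of Psmb6. Controls read 149.9, 141.5, 212.8, 134.1 and 151.8, and diabetic arrays 214.4, 213.1, 187.6, 211.8 and 179.0. Control 3 was the one control inside the diabetic range. The mean went from 158.0 ± 31.4 to 201.2 ± 16.6, a log2 change of 0.33 ± 0.12 (limma adjusted p = 0.216). It was 0.15 without controls 1, 2 and 4, and 0.44 ± 0.093 when control 3 was left out (adjusted p = 0.0678), and over all settings the adjusted p ran from 0.0137 to 1.0.

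Psmb10 (1374033_at), the inducible counterpart of Psmb7, showed no such separation. Controls read 159.8, 109.6, 173.0, 98.9 and 147.9, and diabetic arrays 113.1, 148.9, 161.0, 166.0 and 163.4. The ranges lay almost on top of each other, with diabetic 1 beside the lowest controls. Its means were 137.8 ± 32.1 and 150.5 ± 21.9, a log2 change of 0.13 ± 0.16 (limma adjusted p = 0.681). It was -0.091 without controls 1, 2 and 4. Intensities of this size are not far above 85.9, the level a probe set had to exceed on at least 5 arrays to be tested.

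Psme1 (1367663_at) encodes the alpha chain of the ring activator of antigen processing. Controls read 931.3, 855.3, 896.5, 791.2 and 918.2, and diabetic arrays 1211.5, 1091.5, 1070.3, 1135.7 and 1140.3. Every diabetic array was above every control array. The means were 878.5 ± 56.7 and 1130 ± 54.4, a 1.28-fold difference and a log2 change of 0.36 ± 0.089 (limma unadjusted p = 0.00193, adjusted p = 0.0950). It was called without control 5 (adjusted p = 0.0315), and the change lay between 0.28 and 0.41 in all 24 settings, whose adjusted p ran from 0.00859 to 1.0. Without controls 1, 2 and 4 it was 0.31.

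Psme2 (1367710_at), the beta chain of the same ring, read 391.9, 364.9, 436.9, 325.0 and 336.8 in controls and 395.2, 396.5, 373.0, 365.9 and 409.2 in diabetic arrays. The diabetic arrays lay inside the control range. The log2 change was 0.068 ± 0.098 (371.1 ± 45 against 388.0 ± 17.9, limma adjusted p = 0.730). It was below 0 when each array was centred on its median, and 0.014 without controls 1, 2 and 4. The partner genes of the ring thus gave different values in the same samples, and the difference between their changes was not tested.

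**Figure D2:**
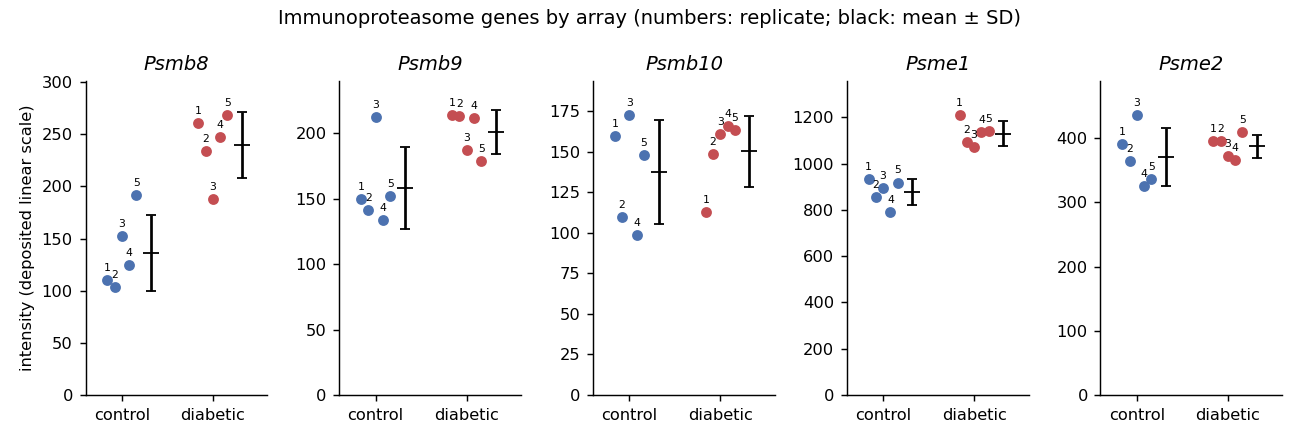
Intensity of the 5 immunoproteasome genes in every array, as deposited, with replicate numbers at the points and the mean and SD of each group in black (n = 5). Psme1 is separated between the groups, Psmb8 overlaps through control 5 and diabetic 3, Psmb9 through control 3, and Psmb10 and Psme2 overlap throughout.

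Levels of immune cell markers were set beside these values. Of 8 tested macrophage markers 5 averaged higher and 3 lower, with a median change of 0.020 and a summed intensity of 3755 to 5578 in controls and 3881 to 5151 in diabetic arrays. Of 8 MHC class II genes, which mark antigen-presenting cells, 7 averaged higher (median 0.27), with sums of 3351 to 4605 and 3817 to 6340. Of 11 lymphocyte markers on the array only 4 passed the filter, and Gzmb, Cd2, Cd3d, Cd3e, Cd8a and Cd79b were below 85.9 on every array. No marker of these lists passed the test, and their part in the immunoproteasome values was not tested.

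The immunoproteasome genes lie in a few places in the RefSeq annotation of GRCr8. Psmb8 and Psmb9 stand on chromosome 20 within the MHC class II region, in the order RT1-DOb, Tap2, Psmb8, Tap1, Psmb9 and RT1-DMb, so that they alternate with the genes of the peptide transporter. Psme1 and Psme2 stand on chromosome 15 with only Emc9 between them. Psmb10 stands alone on chromosome 19. The sequences that follow are the 250 bases before each transcript start, 5′ to 3′ on the gene's strand, from RefSeq on GRCr8, shown because these genes are known interferon targets. Capitals mark the core of the interferon-stimulated response element (GAAA, any 2 bases, GAAA) and the CCAAT box, searched on both strands. Psmb8 (chr20:4657032-4657281, minus strand) holds 1 CCAAT box in reverse, Psmb9 (chr20:4668750-4668999, plus strand) and Psme1 (chr15:33038721-33038970, plus strand) neither motif, Psme2 (chr15:33052752-33053001, minus strand) 1 interferon element and Psmb10 (chr19:50743293-50743542, minus strand) 2.
Psmb8: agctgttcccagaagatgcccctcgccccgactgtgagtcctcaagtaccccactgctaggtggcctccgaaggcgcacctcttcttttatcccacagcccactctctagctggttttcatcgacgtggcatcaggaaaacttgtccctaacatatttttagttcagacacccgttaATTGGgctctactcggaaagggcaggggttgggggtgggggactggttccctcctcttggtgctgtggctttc
Psmb9: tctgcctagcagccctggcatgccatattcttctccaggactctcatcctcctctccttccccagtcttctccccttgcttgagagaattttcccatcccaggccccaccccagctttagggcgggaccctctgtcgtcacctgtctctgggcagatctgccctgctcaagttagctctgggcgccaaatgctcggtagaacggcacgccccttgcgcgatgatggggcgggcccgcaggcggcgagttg
Psme1: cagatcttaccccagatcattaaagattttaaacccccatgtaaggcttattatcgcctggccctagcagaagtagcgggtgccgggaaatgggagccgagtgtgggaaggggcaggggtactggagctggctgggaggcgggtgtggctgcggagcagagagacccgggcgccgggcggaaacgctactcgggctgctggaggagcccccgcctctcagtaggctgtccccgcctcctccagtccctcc
Psme2: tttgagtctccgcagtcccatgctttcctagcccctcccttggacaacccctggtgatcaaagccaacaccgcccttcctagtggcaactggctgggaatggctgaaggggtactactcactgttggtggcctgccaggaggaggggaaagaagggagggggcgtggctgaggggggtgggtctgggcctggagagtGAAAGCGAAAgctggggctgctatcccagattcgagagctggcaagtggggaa
Psmb10: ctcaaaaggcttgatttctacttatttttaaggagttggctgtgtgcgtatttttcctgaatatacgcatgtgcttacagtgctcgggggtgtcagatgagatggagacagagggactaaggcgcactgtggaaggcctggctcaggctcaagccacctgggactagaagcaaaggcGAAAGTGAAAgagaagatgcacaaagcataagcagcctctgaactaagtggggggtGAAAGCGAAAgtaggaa
The interferon element was found in 3.29% of the 27457 promoters of the table, and in 2 of these 5. Of the 36 members with a promoter in the table, 5 held it: Psmb10, Psme2, Psma4, Psmb3 and Psmd7. Psmb8, Psmb9 and Psme1, the genes with the larger changes, have no match in this window, which says only that these letters are not there.

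The constitutive 20S core averaged lower in diabetic tissue. Of its 13 probe sets 12 were lower, 6 of them at an unadjusted p under 0.05 and 0 after adjustment (limma adjusted p = 0.216 to 0.598). The 6 beta subunits were all lower, with a median of -0.29, and 6 of the 7 alpha subunits were lower, with a median of -0.22.

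Psmb3 (1398853_at), a structural beta subunit, had the lowest p of the core. Controls read 1302.5, 1165.9, 1116.6, 1184.6 and 973.8, and diabetic arrays 983.8, 928.1, 965.9, 912.7 and 951.6. Only control 5 came within the diabetic range. Its mean was 1149 ± 119 in controls and 948.4 ± 28.5 in diabetic arrays, a log2 change of -0.27 ± 0.097 (limma adjusted p = 0.216). It was -0.14 without controls 1, 2 and 4.

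Psmb7 (1367656_at), the subunit with the trypsin-like site, read 2355.9, 2186.0, 1489.1, 1775.7 and 1145.1 in controls and 1368.0, 1032.5, 1155.1, 1317.5 and 1478.0 in diabetic arrays. Its controls spanned a wider range than its groups' means differed, with control 1 highest and control 5 among the diabetic arrays. The means were 1790 ± 496 and 1270 ± 177 and the log2 change -0.45 ± 0.19 (limma adjusted p = 0.264). The change was -0.051 without controls 1, 2 and 4, where control 3 lay just above and control 5 inside the diabetic range.

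Psmb1 (1398812_at), a structural subunit, had the same shape across arrays. It read 2526.1, 2334.2, 1638.9, 1785.1 and 1520.5 in controls and 1587.0, 1427.5, 1567.9, 1387.3 and 1464.5 in diabetic arrays, a log2 change of -0.37 ± 0.15 (limma adjusted p = 0.245). Psmb4 (1398831_at), another structural subunit, gave -0.30 ± 0.13 (1981 ± 358 against 1587 ± 132, limma adjusted p = 0.263). In both genes controls 1 and 2 were the highest of the 10 arrays. When controls 1, 2 and 4 were left out, Psmb1 stood at -0.087 and Psmb4 at -0.13.

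Psmb5 (1371348_at) carries the chymotrypsin-like site that proteasome inhibitor drugs block. Controls read 1556.3, 1685.2, 1509.9, 1465.4 and 1209.3, and diabetic arrays 1224.6, 1120.4, 1296.7, 1299.7 and 1479.4. The 4 controls other than control 5 exceeded 4 of the diabetic arrays, and diabetic 5 lay among them. The log2 change was -0.21 ± 0.12 (1485 ± 175 against 1284 ± 131, limma adjusted p = 0.368). Psmb2 (1398786_at), a structural subunit, was the beta subunit closest to 0, at -0.10 ± 0.095 (limma adjusted p = 0.577). Leaving out controls 1, 2 and 4 gave -0.079 for Psmb5 and -0.20 for Psmb2.

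Among alpha subunits, Psma3 (1368508_at), part of the outer ring, read 540.0, 589.3, 428.5, 486.5 and 414.2 in controls and 453.2, 293.9, 348.1, 453.4 and 379.5 in diabetic arrays. The log2 change was -0.34 ± 0.15 (491.7 ± 74.0 against 385.6 ± 69.0, limma adjusted p = 0.262). Psma7 gave -0.45 ± 0.19 and Psma4 -0.35 ± 0.16, and among the other ring members Psma6 gave -0.15 ± 0.10, Psma5 -0.22 and Psma2 -0.17. These stood, without controls 1, 2 and 4, at -0.14 (Psma3), -0.030 (Psma7), -0.073 (Psma4), -0.21 (Psma6), -0.091 (Psma5) and 0.038 (Psma2). The exception in the core was Psma1 (1398778_at), also of the outer ring, which was not lower. It read 755.6, 865.9, 737.8, 964.5 and 713.1 in controls and 1015.6, 923.8, 759.4, 982.3 and 952.0 in diabetic arrays, a log2 change of 0.20 ± 0.12 (limma adjusted p = 0.393), or 0.34 without those controls.

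Psmb5 and Psmb7, the constitutive partners of Psmb8 and Psmb10, are shown with the same 250 bases for comparison. Capitals mark the antioxidant response element core TGACNNNGC, the motif read by NRF1 and NRF2, and the CCAAT box, on both strands. Psmb5 (chr15:32047380-32047629, minus strand) holds the former and Psmb7 (chr3:42827471-42827720, minus strand) the latter.
Psmb5: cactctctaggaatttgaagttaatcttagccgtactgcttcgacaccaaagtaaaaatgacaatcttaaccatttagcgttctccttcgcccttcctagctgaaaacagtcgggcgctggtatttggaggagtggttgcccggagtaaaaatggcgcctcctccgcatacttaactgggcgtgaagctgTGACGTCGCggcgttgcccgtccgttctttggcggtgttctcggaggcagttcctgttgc
Psmb7: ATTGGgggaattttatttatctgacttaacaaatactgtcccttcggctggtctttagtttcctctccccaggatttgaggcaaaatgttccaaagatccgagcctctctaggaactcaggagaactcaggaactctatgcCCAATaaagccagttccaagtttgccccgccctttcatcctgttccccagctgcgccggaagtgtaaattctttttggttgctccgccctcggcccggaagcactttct
The antioxidant element core was found in 10.2% of all promoters and in 6 of 36 members (Psma3, Psmb2, Psmb5, Psmd1, Psmd9 and Psme4). The CCAAT box was found in 34.3% of all promoters, in 9 of 12 core genes, in 5 of 13 cap genes and in 1 of 5 immunoproteasome genes. A match of this length is a description of the letters and no shown binding site.

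The levels of inducible and constitutive partners were set against each other within each array, as a difference of log2 values. Probes differ in brightness, so only the change of this difference between groups can be read, not its size. Psmb8 minus Psmb5 was -3.64, -3.84, -3.18, -3.40 and -2.56 in controls and -2.16, -2.19, -2.69, -2.32 and -2.39 in diabetic arrays. The groups overlapped only through control 5 and diabetic 3. The means were -3.32 ± 0.49 and -2.35 ± 0.21, a difference of 0.97, and it stood at 0.92, 1.23 and 1.15 within scan days 1, 2 and 3. It was 0.52 without controls 1, 2 and 4.

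Psmb10 minus Psmb7 was -3.75, -4.13, -2.99, -3.96 and -2.82 in controls and -3.42, -2.67, -2.73, -2.87 and -3.06 in diabetic arrays. Controls 3 and 5 lay among the diabetic arrays and controls 1, 2 and 4 below them all. The means were -3.53 ± 0.59 and -2.95 ± 0.30, a difference of 0.58. Without controls 1, 2 and 4 that difference was -0.041, so it rested on those 3 arrays.

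In the 19S cap, 12 of 15 probe sets averaged lower and 0 passed the test. The ATPases that unfold the substrate (Psmc) were all lower, 5 of 5, with a median log2 change of -0.35, 4 of them at an unadjusted p under 0.05. Of 10 probe sets for the other subunits 7 were lower and 3 higher, with a median of -0.080, and 2 were past that mark. The adjusted p in the cap ran from 0.183 to 0.983.

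Psmc3 (1387120_at) was the only cap gene whose groups were separate. Controls read 646.1, 656.8, 629.7, 703.6 and 630.0, and diabetic arrays 484.3, 510.9, 552.2, 543.0 and 603.8. The controls lay close together and every diabetic array below them. The mean was 653.2 ± 30.4 in controls and 538.8 ± 45.2 in diabetic arrays, 0.828 times the control level and a log2 change of -0.27 ± 0.091 (limma unadjusted p = 0.0119, adjusted p = 0.183). It lay between -0.35 and -0.16 in all 24 settings, with an adjusted p from 0.0289 to 1.0, and was -0.22 without controls 1, 2 and 4.

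Psmc4 (1398869_at), another of the ATPases, read 775.8, 956.5, 630.3, 771.3 and 763.2 in controls and 690.8, 542.1, 551.5, 601.5 and 635.4 in diabetic arrays. Control 3 was the only control among the diabetic values. The log2 change was -0.35 ± 0.12 (779.4 ± 116 against 604.3 ± 61.5, limma adjusted p = 0.198). It was -0.20 without controls 1, 2 and 4.

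Psmc5 (1367833_at) had the largest downward value of any member. It belongs to the same ATPase ring. Controls read 943.7, 782.6, 545.3, 716.2 and 372.5, and diabetic arrays 430.7, 397.2, 444.1, 476.2 and 516.0. Control 5 was the lowest of all 10 arrays, although controls 1, 2, 3 and 4 were all above the diabetic range. The log2 change was -0.49 ± 0.21 (672.1 ± 220 against 452.8 ± 45.3, limma adjusted p = 0.271). Without controls 1, 2 and 4 it was 0.00040, where control 3 lay above and control 5 below every diabetic array. With only control 5 left out it was -0.68 ± 0.15 (limma adjusted p = 0.0249).

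Psmc2 (1367711_at) read 1927.7, 1653.5, 1460.5, 1458.5 and 1096.9 in controls and 1191.5, 1063.7, 1165.9, 1106.3 and 1281.5 in diabetic arrays. Control 5 was again within the diabetic range and the other 4 above it. Its log2 change was -0.36 ± 0.14 (1519 ± 304 against 1162 ± 83.6, limma adjusted p = 0.237). Psmc1 gave -0.17. Leaving out controls 1, 2 and 4 gave -0.13 for Psmc2 and 0.012 for Psmc1.

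Among the other cap subunits, Psmd6 (1371851_at), a structural part of the lid, read 1420.9, 1246.5, 1190.7, 1110.8 and 1039.2 in controls and 1018.1, 935.2, 1013.2, 914.5 and 1064.7 in diabetic arrays. Its groups overlapped only through control 5 and diabetic 5. The log2 change was -0.27 ± 0.11 (1202 ± 146 against 989.1 ± 62.5, limma adjusted p = 0.237). Psmd1 (1369992_at), the scaffold of the base on which ubiquitin receptors dock, gave -0.21 ± 0.084 (291.9 ± 21.8 against 250.8 ± 13.1, limma adjusted p = 0.249). In this gene control 5 was the highest control, at 312.3. These changes were -0.17 for Psmd6 and -0.17 for Psmd1 without controls 1, 2 and 4.

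Psmd7 (1389245_at), the partner of the lid's deubiquitinase, was near 0, at -0.0094 ± 0.11 (724.7 ± 98.8 against 715.5 ± 37.5, limma adjusted p = 0.970). Psmd8 gave -0.24, Psmd13 -0.18, Psmd2 -0.074 and Psmd3 0.099, and the ubiquitin receptor Psmd4 gave -0.087. Psmd11, a lid subunit that contacts the core, had 2 probe sets that did not track each other. The first (1374712_at) read 1164.1, 1476.3, 783.2, 1358.5 and 610.2 in controls and 1248.0, 791.2, 1041.9, 1060.2 and 1065.5 in diabetic arrays, a log2 change of 0.011 ± 0.24 (limma adjusted p = 0.983). The second (1376069_at) read 874.0, 807.1, 1013.8, 932.3 and 725.5 and then 943.1, 901.1, 924.4, 951.6 and 1090.5, a change of 0.15 ± 0.11 (limma adjusted p = 0.486). Control 3 was the highest control on the second and among the lowest on the first. With controls 1, 2 and 4 left out, the first stood at 0.57 and the second at 0.16, Psmd7 at 0.18, Psmd8 at -0.013, Psmd13 at 0.10, Psmd2 at 0.080, Psmd3 at 0.098 and Psmd4 at 0.069, none past the test.

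The 3 chaperones that assemble the base of the cap, Psmd5, Psmd9 and Psmd10, all averaged lower without passing the test. Psmd9 went from 146.8 ± 21.6 to 121.7 ± 18 (log2 change -0.24 ± 0.13, limma adjusted p = 0.337), Psmd10 from 327.0 ± 46.6 to 285.1 ± 44.2 (-0.19 ± 0.13, adjusted p = 0.445) and Psmd5 from 347.9 ± 65.4 to 332.2 ± 30.7 (-0.050 ± 0.13, adjusted p = 0.854). Psme4, the ubiquitin-independent activator also called PA200, had 3 probe sets with differing values. They gave -0.24 ± 0.11 (1387345_at, limma adjusted p = 0.283), -0.031 ± 0.23 (1368818_at, adjusted p = 0.954) and 0.0020 ± 0.11 (1368817_at, adjusted p = 0.992). With controls 1, 2 and 4 left out they stood at -0.14, 0.50 and 0.14, and Psmd9, Psmd10 and Psmd5 at -0.18, -0.15 and -0.30, none past the test. Of the genes sharing only the prefix, Psmc3ip, a meiotic recombination factor, gave -0.14 ± 0.12 and Psme3ip1, a partner of the nuclear activator Psme3, 0.17 ± 0.17 (limma adjusted p = 0.521 and 0.599), or -0.018 and -0.0062 without those controls.

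The controls varied more than the diabetic arrays in these genes. The log2 SD was larger in controls for 37 of 41 members (90.2%), with a median of 0.21 against 0.12, and over all tested probe sets this held for 77.0%. In the core, control 1 was the highest control in 9 of 13 probe sets and control 5 the lowest in 10 of 13. As a median deviation from the 10-array mean, the core stood at 0.44, 0.24, 0.072, 0.092 and -0.14 in controls 1 to 5 and at -0.035, -0.24, -0.11, -0.19 and -0.11 in diabetic arrays. Control 5 thus lay among the diabetic arrays, and control 3 above all of them but below the other 3 controls.

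The cap stood at 0.18, 0.20, -0.082, 0.19 and -0.14 in controls and at -0.083, -0.19, -0.098, -0.061 and -0.029 in diabetic arrays. Here controls 1, 2 and 4 were above every other array, and controls 3 and 5 were within the diabetic range. In 10 of 15 cap probe sets and 6 of 13 core probe sets, controls 1, 2 and 4 all exceeded controls 3 and 5. That was so for 0 of 5 immunoproteasome probe sets, whose median deviation was -0.094, -0.29, 0.20, -0.36 and -0.11 in controls and 0.26, 0.13, 0.077, 0.20 and 0.18 in diabetic arrays. Psmb8 showed the reverse split, with controls 1, 2 and 4 (109.8, 103.1 and 124.8) all below controls 3 and 5 (152.2 and 191.4). Psmb9 did so too (149.9, 141.5 and 134.1 against 212.8 and 151.8).

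**Figure D3:**
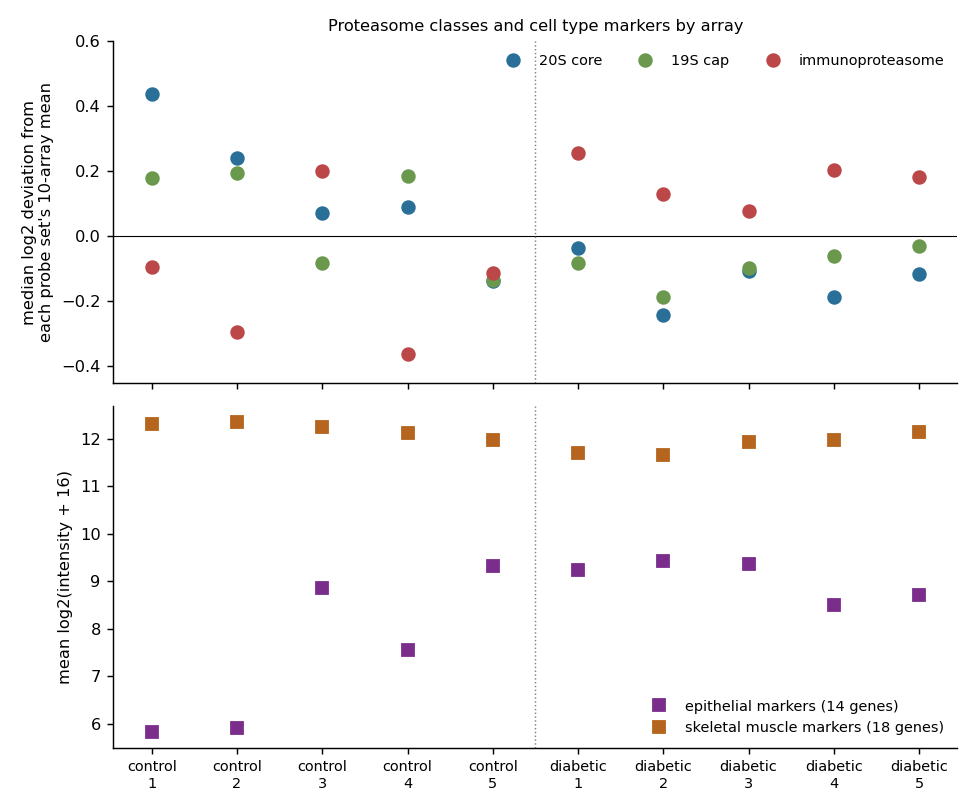
Median log2 deviation from the 10-array mean of the 20S core (13 probe sets), the 19S cap (15) and the immunoproteasome (5) in each array (upper panel), and mean log2 level of epithelial and skeletal muscle markers in the same arrays (lower panel). Controls 1, 2 and 4 are high in the cap and low in epithelial markers, control 1 is highest in the core at 0.44, and immunoproteasome values of controls run from -0.36 to 0.20.

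Epithelial markers moved with this split among the controls. The same controls 1, 2 and 4 had the lowest epithelial levels, and all 14 tested epithelial markers averaged higher in diabetic arrays (median 1.76), with a summed intensity of 890 to 13029 in controls and 6590 to 13178 in diabetic arrays. Skeletal muscle markers did not divide the controls in this way, with control 3 above control 4. All 18 tested averaged lower in diabetic arrays (median -0.25), with the sums given above. Their mean log2 level was 12.32, 12.36, 12.25, 12.14 and 11.99 in controls and 11.71, 11.65, 11.94, 11.97 and 12.15 in diabetic arrays. Of the 10 smooth muscle markers 7 averaged higher and 3 lower in diabetic arrays (median 0.25). No marker of these lists passed the test.

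Proteasome values were therefore refitted with these levels taken into account. With the epithelial marker mean as a covariate, the median change was -0.074 in the core, -0.029 in the cap and 0.22 in the immunoproteasome. With the skeletal muscle mean it was -0.15, -0.039 and 0.27. Without controls 1, 2 and 4 it was -0.087, 0.012 and 0.15, with 11 of 13 core probe sets, 6 of 15 cap probe sets and 1 of 5 immunoproteasome probe sets below 0. These fits gave 0 calls among members, and what part tissue makeup had in the lower values was not tested beyond them.

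**Figure D4:**
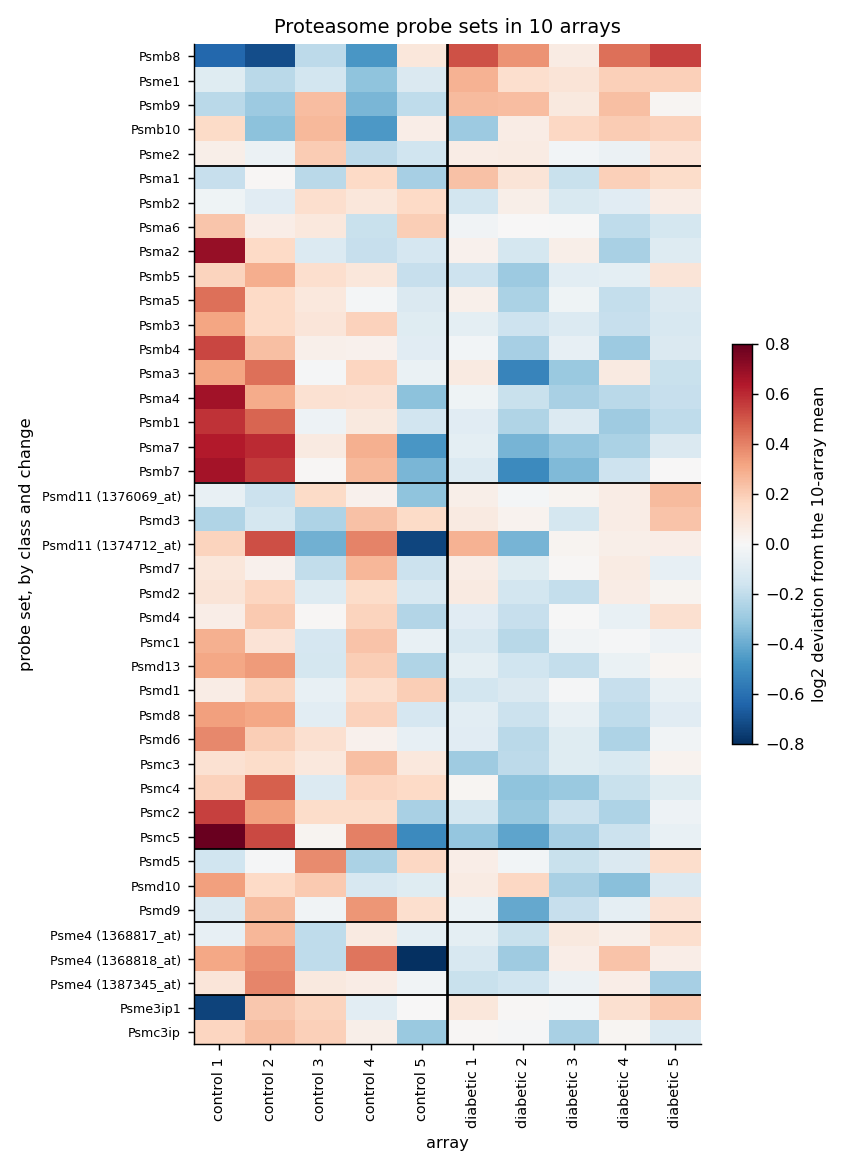
Log2 deviation of each proteasome probe set from its own mean over the 10 arrays, with arrays as columns by group and probe sets as rows by class. Controls 1 and 2 are high across most of the core, control 5 is the lowest control in 10 of 13 core probe sets, and the inducible genes Psmb8 and Psme1 are high in diabetic columns.

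The arrays were scanned on 4 days and washed on 2 fluidics stations, per the file headers, and diabetic 3 was alone on its day. Station ran largely with group, since 4 of 5 controls were washed on the first and 4 of 5 diabetic arrays on the second. Within scan days 1, 2 and 3 the median change was -0.41, -0.15 and -0.27 in the core, -0.24, -0.27 and -0.12 in the cap and 0.24, 0.60 and 0.23 in the immunoproteasome. Within stations 1 and 2 it was -0.39 and -0.16, then -0.26 and -0.27, then 0.27 and 0.52. Psmb8 stood at 0.63, 0.98 and 0.95 within days and Psme1 at 0.24, 0.60 and 0.37. Psmb9 stood at 0.46, 0.62 and 0.15 and Psmc3 at -0.31, -0.52 and -0.16. Each of these values had the sign of the pooled one, from as few as 1 array per group.

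**Figure D5:**
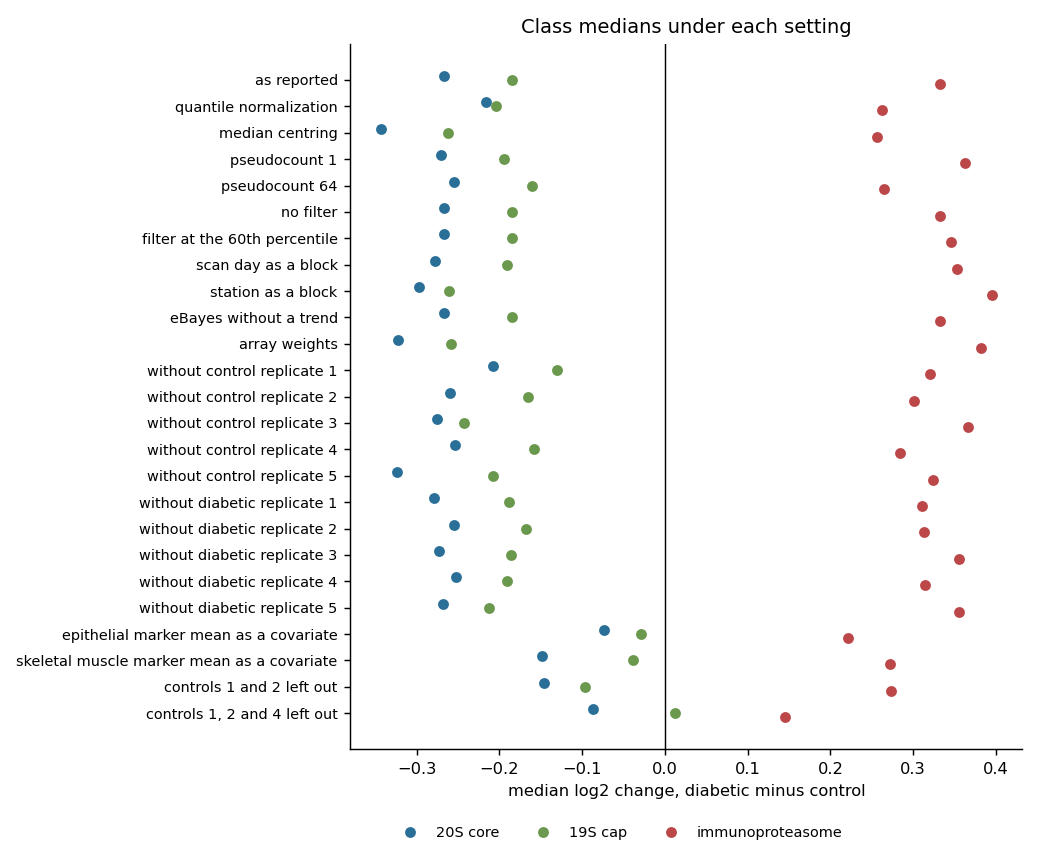
Median log2 change of the 20S core, 19S cap and immunoproteasome under each alternative setting, with the reported value on the top line. The core lies below 0 and the immunoproteasome above 0 throughout, and the cap reaches 0.012 without controls 1, 2 and 4.

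Other genes of the pathway were read from lists of known function, 1 probe set per gene (the brightest). Of the 6 genes that assemble or inhibit the core, 4 averaged lower and 0 passed. The lowest p belonged to Pomp, the maturation factor that completes new cores, at 2168 ± 273 in controls and 1713 ± 82.3 in diabetic arrays (log2 change -0.33 ± 0.11, limma adjusted p = 0.181). Of 8 cap partners, 4 were higher and 4 lower and 0 passed. Ecpas, which tethers the cap to the core, gave -0.35 ± 0.13 (limma adjusted p = 0.225), and Sem1, a small cap subunit outside the naming rule, -0.44 ± 0.20 (adjusted p = 0.284). Ubqln2, next by p, was higher, at 0.23 ± 0.12 (adjusted p = 0.328).

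Both tested genes that load or supply ubiquitin, the activating enzymes Uba6 and Uba1, averaged higher, at 0.33 ± 0.15 and 0.26 ± 0.13 (limma adjusted p = 0.287 and 0.325). Of 8 genes in the NRF1 route, which restores proteasome genes after inhibition, 6 were lower and 0 passed. Nfe2l2, the related stress factor NRF2, was separated between groups only narrowly, with 594.9 in diabetic 4 against 594.3 in control 4. Its means were 565.7 ± 23.2 and 709.3 ± 119 (log2 change 0.30 ± 0.12, limma adjusted p = 0.233). Of all probe sets, 3.89% were separated in either direction. Nfe2l1 itself gave -0.13 ± 0.17 by its brightest probe set (adjusted p = 0.703), and its dimmer probe sets gave -0.010 and 0.066. Of 6 muscle ubiquitin ligases 5 were higher and 0 passed. Nedd4 had the lowest p, at 0.18 ± 0.12 by its brightest probe set and 0.21 ± 0.093 by the other (limma adjusted p = 0.426 and 0.284). Trim63, the atrophy ligase MuRF1, gave 0.21 ± 0.27 (adjusted p = 0.703).

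The interferon and class I antigen list had 15 tested genes, 9 higher and 6 lower, with a median of 0.096 and 0 passing by the brightest probe set. B2m, the light chain of class I molecules, had a second, dimmer probe set (1371440_at) that rose from 1243 ± 85.9 to 1841 ± 184 without overlap, a log2 change of 0.56 ± 0.10 (limma adjusted p = 0.0496). Its brighter probe set (1367595_s_at) gave 0.34 ± 0.11 (adjusted p = 0.181). The dimmer one was called in 5 of 24 alternative settings, with an adjusted p from 0.00612 to 0.996. Erap1, which trims peptides for class I, gave 0.40 ± 0.13 (limma adjusted p = 0.179), and Ifngr1, the interferon-gamma receptor, 0.72 ± 0.26 (adjusted p = 0.204). Both genes divided the controls. Ifngr1 read 759.1, 785.3 and 888.5 in controls 1, 2 and 4, but 1647.3 and 1841.2 in controls 3 and 5, inside the diabetic range of 1525.6 to 2105.1. Erap1 read 328.9, 350.5 and 384.4 against 481.5 and 509.1, with diabetic arrays at 508.6 to 590.6.

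Among genes that interferon induces directly, Irf1, a factor that drives immunoproteasome genes, read 874.6, 1037.3, 294.8, 832.9 and 340.4 in controls and 409.6, 439.2, 694.4, 871.0 and 596.4 in diabetic arrays. Controls 1, 2 and 4 were again apart from controls 3 and 5, the diabetic arrays spanned most of the gap, with diabetic 4 above control 4, and the log2 change was -0.048 ± 0.36. Ifit1 gave -0.16 ± 0.11, Stat2 0.040 and Oas1a 0.096. Others on the list gave 0.18 (Gbp2), 0.11 (Irf8), -0.034 (Irf7), -0.023 (Irf9) and -0.058 (Ifit3). The rest of the list gave 0.44 ± 0.18 (RT1-CE5), 0.39 ± 0.20 (Tapbp) and -0.031 ± 0.10 (Ifngr2), with limma adjusted p of 0.249, 0.328 and 0.888. None of these genes passed the test.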

How the data were processed

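The authors' deposited table held 1 linear intensity per probe set and array, and the trimmed mean of each array, without its lowest and highest 2% of values, lay between 250.055 and 250.065, so arrays had been scaled to a common level. No source used here names the software, and detection calls are lacking. The 57 control probe sets among 15923 rows were dropped. Intensities under 1 were raised to 1 and analysed as log2(intensity + 16), so fold changes of dim probe sets are understated. Array medians differed by at most 0.15 (log2), and no further scaling was done. Probe sets with at least 5 of 10 arrays above the 40th percentile (85.9) were tested: 9683, for 7143 genes. Genes were taken from the platform annotation where it named 1. The test was limma's (version 3.58.1, R 4.3.3), with lmFit and an intensity trend in eBayes, two-sided, adjusted by Benjamini-Hochberg over all 9683, and the fit was tested on simulated data. The members, classes, lists and tests were chosen with earlier results of these data known. The genes described one by one were members with separate groups, the immunoproteasome and its partners, all activators and assembly factors, and in core and cap the 5 lowest unadjusted p, the smallest and the extreme changes. From each other list came calls and the lowest p. The remaining subunits, and Irf1 and its neighbours in the text, were named after their values were seen. Replicate numbers follow accession order and pair nothing. Promoters came from a RefSeq table on GRCr8, which held 36 of 38 genes (not Psma7 or Psmd6). Alternatives covered scaling, pseudocount, filter, batch blocks, the variance model, array weights and each array left out. A further 4, chosen after seeing the data, used marker means as covariates or left out controls 1 and 2, or 1, 2 and 4. Plots used matplotlib 3.10.9.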

Additional observations from a re-analysis of the deposited data

Results flagged for a closer look

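Among the values described, 3 arrays lay far from the others of their group, with a gap to the nearest one larger, as a share of the group's range, than Dixon's critical value for 5 samples. Psmb9 read 212.8 in control 3, whose gap was 0.736 of the control range. Psmb10 read 113.1 in diabetic 1 (0.713 of the diabetic range). One Psmd11 probe set (1376069_at) read 1090.5 in diabetic 5 (0.714). Of 100 groups of 5 arrays examined 3 were picked out this way, and chance picks out about 1 in 20.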

How the results depend on the processing

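The count of members past the threshold was 0 as reported and in 22 of 24 alternative settings. It was 18 with array weights, and 0 to 8 when each array was left out in turn, with 8 without control 5. All 8 were also among the 18. A filter at the 60th percentile left Psmb10, Psmd9 and Psmc3ip untested. Of the 41 members, 25 kept 1 sign in every setting and 16 changed sign in at least 1, none of them while called. The count of other pathway probe sets past the threshold, 1 as reported, was 0 with median centring, pseudocount 1, pseudocount 64, no filter, scan day or station as a block, either marker covariate, or without controls 1 and 2 or 1, 2 and 4. It was 13 with array weights and 0 to 5 with single arrays left out (5 without control 5).

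Some marker covariates and sets of controls left out moved medians by more than the spread between replicates, and what caused this was not tested. With the epithelial covariate, the median of all members was -0.056 (reported -0.17), of the core -0.074 and of the cap -0.029, Psmb8 minus Psmb5 differed by 0.57 and Psmb10 minus Psmb7 by 0.11. With the skeletal muscle covariate, all members stood at -0.045, the cap at -0.039 and Psmb8 minus Psmb5 at 0.51. Without controls 1, 2 and 4, all members stood at -0.030, the core at -0.087, the cap at 0.012, the immunoproteasome at 0.15, Psmb8 minus Psmb5 at 0.52 and Psmb10 minus Psmb7 at -0.041. With single arrays left out, the medians ran from -0.23 to -0.12 for all members, -0.32 to -0.21 for the core, -0.24 to -0.13 for the cap and 0.28 to 0.37 for the immunoproteasome, and the differences from 0.85 to 1.16 for Psmb8 minus Psmb5 and 0.43 to 0.76 for Psmb10 minus Psmb7. Other settings moved the medians of all members, core, cap and immunoproteasome by less than that spread. For the small classes, Psme4 stood at -0.28 with array weights and -0.23 with station as a block (reported -0.031), and the assembly factors at -0.0085 with station as a block (reported -0.19).

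No paired analysis was possible because replicate numbers follow accession order. The arrays give no detection calls, 5 per group limit the precision, and Psmb8, Psmb9 and Psmb10 lie at low intensity.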
